A study of Mus musculus with 12 samples.

Results

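The RNA of mock-treated MECs, a mouse endothelial cell line of intraembryonic origin, was described here from the 3 control arrays of a series of 12. The 9 other arrays held MECs given the signalling protein BMP6, a relative of TGF-beta, for 4, 12 or 24 h, with 3 arrays per group. They were used here to see whether a level recurred. On every array the RNA of the cells carried the dye Cy5 and was hybridised together with Cy3-labelled Universal mouse reference RNA. The labels give no strain, passage or time point for the controls, and describe the triplicates as independent biological replicates of 1 line. The composition of the reference RNA is not given in the sources used here.

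A level in this text is the log2 ratio of cells to reference, averaged over a gene's probes and then over the 3 control arrays, and ± is the SD over those arrays (n = 3). A level of 1 lies 2-fold above the reference and a level of -1 lies 2-fold below it. The ratio compares 1 gene in 2 RNAs, so an order of levels is an order of ratios and not of transcript abundance. A gene below the reference can still be expressed. The base of the logarithm and the sign of the ratio are not stated, and were set from the dyes and the range of the values, with log2 as the base and the cells as the numerator. With the opposite sign, every "above" would be a "below". The dyes were not swapped, so a probe's own dye preference is part of each level.

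Each control array held 20280 values, with medians of -0.04, -0.02 and -0.04 and SDs of 0.68, 0.61 and 0.66. Array pairs correlated across rows at 0.932, 0.887 and 0.89, and differed by a median of 0.15 to 0.19, so the 3 arrays were distinct. Names could be given to 8267 genes through a probe order recovered from the data, and 9704 rows carried no single gene name. Across 1831 genes with several probes, 2 probes of a gene correlated at 0.449, and all probes of a gene had 1 sign in 1062 (58.0%). No spot intensities were used here, so nothing is said about whether a transcript was detected. The number of arrays limits the precision.

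As background, endothelial cells line blood and lymphatic vessels and are recognised by junction proteins such as VE-cadherin and by receptors for vascular growth factors. Cells fold membrane and secreted proteins in the endoplasmic reticulum, where the unfolded protein response keeps up the supply of chaperones. Cyclooxygenase 2, named in the title of the series, makes the precursor of prostaglandins, the prostanoid signals that act on vessels. The question asked of the control arrays was which genes and gene families stood above or below the reference before any BMP6 was given.

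Of the 8267 genes, 962 (11.6%) were called at least 2-fold from the reference at an adjusted p under 0.05 in limma's moderated test of the mean against 0. These were 551 genes above (6.67%) and 411 below (4.97%). Without the limit on size 5524 genes passed (66.8%), 2934 above (35.5%) and 2590 below (31.3%), so passing the test alone says little about a single gene. Over all rows, named or not, 12396 passed (61.1%), and 1095 (5.40%) stood at least 2-fold above and 827 (4.08%) at least 2-fold below. In what follows "high" and "low" mean at least 2-fold and past the test. "Above" and "below" mean past the test, and a gene that missed the test is given with its value.

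The promoters shown here belong to unfolded protein response genes, because 10 of the 18 measured members of that list were high. They were searched, in the 250 bases before each start site and on both strands, for the endoplasmic reticulum stress element, which is CCAAT and CCACG with any 9 bases between them. Its first part is also a plain CCAAT box, a common promoter element. The sequences are from RefSeq on the build GRCm38.p6, written 5′ to 3′ on the gene's strand, with the match in capitals. For Hsp90b1 at its second match, Calr and Creld2 the match lies on the opposite strand and so reads CGTGG first.
Hspa5, chr2:34772017-34772051 (+ strand): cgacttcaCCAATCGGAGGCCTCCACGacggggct
Hsp90b1, chr10:86705630-86705664 (- strand): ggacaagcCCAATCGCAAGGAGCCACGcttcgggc
Hsp90b1, chr10:86705525-86705559 (- strand): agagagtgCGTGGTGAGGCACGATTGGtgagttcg
Calr, chr8:84847067-84847101 (- strand): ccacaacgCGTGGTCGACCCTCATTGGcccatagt
Creld2, chr15:88819512-88819546 (+ strand): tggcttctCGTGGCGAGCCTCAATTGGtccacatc
Dnajc3, chr14:118937819-118937853 (+ strand): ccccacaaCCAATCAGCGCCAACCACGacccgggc
Syvn1, chr19:6046524-6046558 (+ strand): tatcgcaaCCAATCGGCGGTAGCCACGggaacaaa
The element was found in 6 of the 16 list members with a promoter in the table (37.5%) and in 35 of all 27025 genes there (0.13%). Of 8 members that were high, 5 held it, and of the 8 others 1 did (Syvn1). The element was chosen because it is known from this response, so these shares are not a test. A match describes these letters only.

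The chaperones behind those promoters stood among the highest genes of the cells. Hspa5, the main chaperone of the endoplasmic reticulum, had log2 levels of 3.20, 3.02 and 3.73 on control arrays 1, 2 and 3 (3.32 ± 0.36, 9.97-fold, limma adjusted p 2.41e-06). Its 3 probes had 1 sign. Hsp90b1, the chaperone GRP94, lay at 2.78, 2.91 and 3.10 (2.93 ± 0.16), and Calr, the lectin chaperone calreticulin, at 2.26, 2.27 and 2.60 (2.37 ± 0.19). The 3 arrays were thus close for each chaperone, and array 3 was the highest for each. Pdia4, a disulfide isomerase, had a log2 level of 2.94 ± 0.17 and the secreted factor Manf one of 2.63 ± 0.25. Creld2 at 2.15, Edem1 at 1.94, Hyou1 at 1.88, Ero1a at 1.81 and Dnajc3 at 1.72, all of folding, oxidation or disposal of proteins in that compartment, completed the 10 high members.

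The other 8 members stood nearer the reference. The co-chaperones Dnajb11 and Dnajb9 were above at log2 levels of 0.95 ± 0.14 and 0.55 ± 0.28, and Syvn1 and Sel1l, of the disposal of misfolded proteins, at 0.78 ± 0.31 and 0.50 ± 0.09. Xbp1, a transcription factor of the response, had a log2 level of 0.66 ± 0.17, and Atf4, which acts in its translational branch, one of 0.38 ± 0.16, which missed the test without array 1 (0.29, limma adjusted p 0.0822). Atf3, a stress-induced factor, was below at -0.25 ± 0.10, and missed the test without array 1 (-0.26, limma adjusted p 0.133) or array 3 (-0.19, 0.1). Selenos missed it at 0.07. In all, 16 of 18 members were above and 1 below, and the list's median was 1.76 against 0.03 for all genes. On the 9 treated arrays that median ran from 1.63 to 1.93. On the 3 control arrays it was 1.82, 1.60 and 1.76.

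Genes that answer amino acid shortage were a further group with some high members. Trib3, a pseudokinase induced through ATF4, was the third highest named gene, at 3.87, 3.41 and 3.57 (3.61 ± 0.23, 12.2-fold, limma adjusted p 7.72e-07). Asns, which makes asparagine, lay at 2.82, 2.10 and 2.53 (2.48 ± 0.36), and Psat1, of serine synthesis, at 2.05, 1.53 and 1.97 (1.85 ± 0.28). Psph, the last enzyme of serine synthesis, was also among the 15 highest genes with a log2 level of 2.84 ± 0.36. Array 2 was the lowest for each of these 4 genes, yet no array approached the reference. Over the list, 4 of 13 members were high, 0 were low, and the median was 0.74. Shmt2, of serine use in mitochondria, was above by less, at a log2 level of 0.33, Ddit4 missed the test at -0.12, and Slc7a3, an amino acid transporter, was below at -0.40.

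The enzymes that charge transfer RNA with amino acids went with this group in direction. Of 14 measured, 11 were above, 0 below and 4 high, with a median log2 level of 0.53. Tars, the threonine enzyme, was highest at 2.19, 1.78 and 2.08 (2.02 ± 0.21), followed by Gars at 1.67 ± 0.27 and Rars at 1.45 ± 0.30. Qars at 0.18, Lars at 0.08 and Yars at 0.03 missed the test, so the high levels did not run through the whole list. The composite element TGATGNAA, which ATF4 binds with C/EBP partners, was found in 2 of 11 promoters of the amino acid list (18.2%) and in 3.91% of all genes. In Asns it lies at positions -23 to -16 from the start site.
Asns, chr6:7693217-7693240 (- strand): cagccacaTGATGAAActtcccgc
Nupr1, chr7:126625565-126625588 (- strand): gggccagaTTGCATCAgacagggc
The second sequence holds the element on its opposite strand, and Nupr1, a small stress-induced chromatin protein, had a log2 level of 0.94 ± 0.15.

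**Figure D1:**
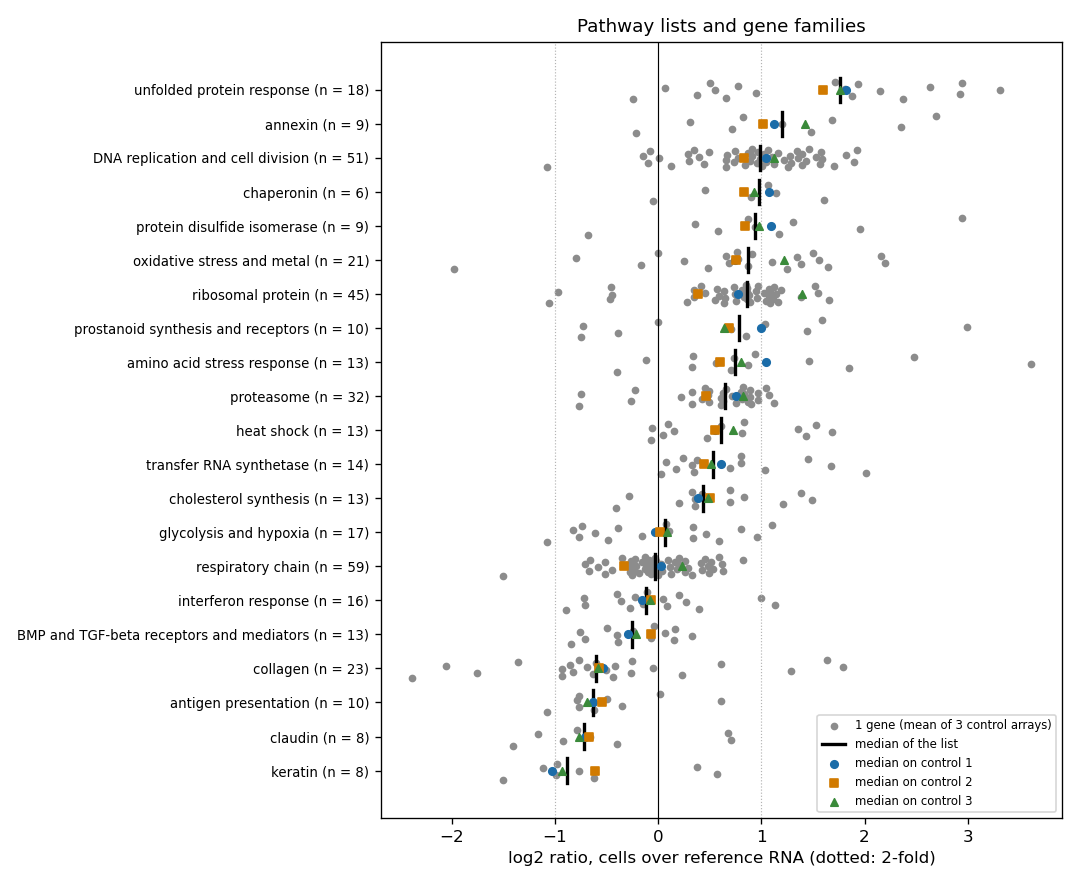
Log2 ratio of cells to reference (horizontal axis) for each measured gene of 21 pathway lists and gene families, as grey points that are means of 3 control arrays, with the list median as a bar and the median on each control array as a coloured symbol. The unfolded protein response list lies farthest right with a median of 1.76, keratins lie farthest left at -0.88, and the 3 array symbols stand farthest apart for ribosomal proteins.

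Genes of DNA replication and cell division were above the reference almost throughout. Of 51 measured, 45 were above, 25 were high and 1 was low, with a median of 0.99, and array medians of 1.05, 0.83 and 1.12. The mitotic kinase Cdk1 had log2 levels of 2.03, 1.55 and 2.21 (1.93 ± 0.34). Cdc6, which loads the replicative helicase, lay at 1.77, 1.76 and 2.17 (1.90 ± 0.23), and Kif20a, a motor of cell separation, at 1.83, 1.72 and 1.92 (1.82 ± 0.10). All 3 arrays held these genes at least 2-fold above the reference. Of the helicase itself, the Mcm family, 4 of 7 members were high and the median was 1.16. Mcm6 at 1.40, Mcm4 at 1.35 and Mcm7 at 1.26 led it, while Mcm3 at 0.01 and Mcm9 at -0.16 missed the test. The single low member of the list was Ccnd3, a cyclin of the first growth phase, at -1.08, whereas its relative Ccnd2 was high at 1.05.

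Sites for E2F factors, which drive genes of DNA synthesis, were searched as TTTCCCGC or TTTGGCGC. They were found in 5 of 41 promoters of this list (12.2%) and in 1.51% of all genes. Mcm6, with matches at positions -110 and -47, and Cdc6, with one on the opposite strand, are shown as members of the helicase and its loader.
Mcm6, chr1:128359800-128359823 (- strand): cgtatgctTTTGGCGCgaaaagtg
Mcm6, chr1:128359737-128359760 (- strand): tggacgggTTTGGCGCgaagtagc
Cdc6, chr11:98908005-98908028 (+ strand): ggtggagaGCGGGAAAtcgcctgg
Mcm5, Mcm7 and Pola1, a subunit of the priming polymerase, held the other matches. Brakes on the cycle stood lower than these genes. The inhibitor Cdkn1a was below at -0.69 ± 0.31 and Cdkn2b at -0.42 ± 0.09, while Cdkn2c was above at 0.64 ± 0.12. Of the 13 inhibitors and p53 targets measured, 4 were above and 8 below (35.5% and 31.3% of all genes), with a median of -0.32. Mtap, an enzyme of methionine salvage that was listed with them because it neighbours Cdkn2a and Cdkn2b, was high at 2.86, 2.77 and 2.96.

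The highest named gene of the cells was Prl2c2, proliferin, a hormone of the prolactin family known from placenta and from growing cell lines. Its log2 levels were 4.90, 3.68 and 4.44 (4.34 ± 0.61, 20.2-fold, limma adjusted p 4.31e-06). It was the highest named gene on each array, and array 2 gave the lowest of its 3 values. Prl2c2 has near-identical copies in the mouse genome, so which copy was measured is uncertain. It was listed as a placental gene, but the other 5 placental genes measured were not above: Eomes at -0.81, Hand1 at -0.77, Tpbpa at -0.55 and Cdx2 at -0.49 were below, and Ascl2 missed the test at -0.12.

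Other genes at the high end fell into a few roles. Kcnab1, a subunit of potassium channels, had log2 levels of 3.20, 3.33 and 3.75, and S100a6, a calcium-binding protein of dividing cells, 3.38, 2.79 and 3.88. Among S100 genes the range was wide, since S100a9, a protein of neutrophils, was low at -3.50 ± 0.07. Serpinb9b at 3.21 and Serpinb6b at 2.90, inhibitors of intracellular proteases, belong to a cluster of close copies and their signals may be shared. Serpinb9 was likewise high at 2.64. A pair of transcripts known by clone names, 1700086L19Rik at 3.73 and A930009E05Rik at 3.03, completed the list of 15 with Cxcl12 and Ptgs2, which are described with their pathways. Lgals1 at 2.66 and Lgals3 at 2.58, galectins that bind sugars of the cell surface, and Anxa3 at 2.69 and Anxa1 at 2.36, annexins that bind membranes, lay just under them. Annexins had the highest median of the families with at least 5 genes, 1.20, with 5 of 9 high and 0 low.

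**Figure D2:**
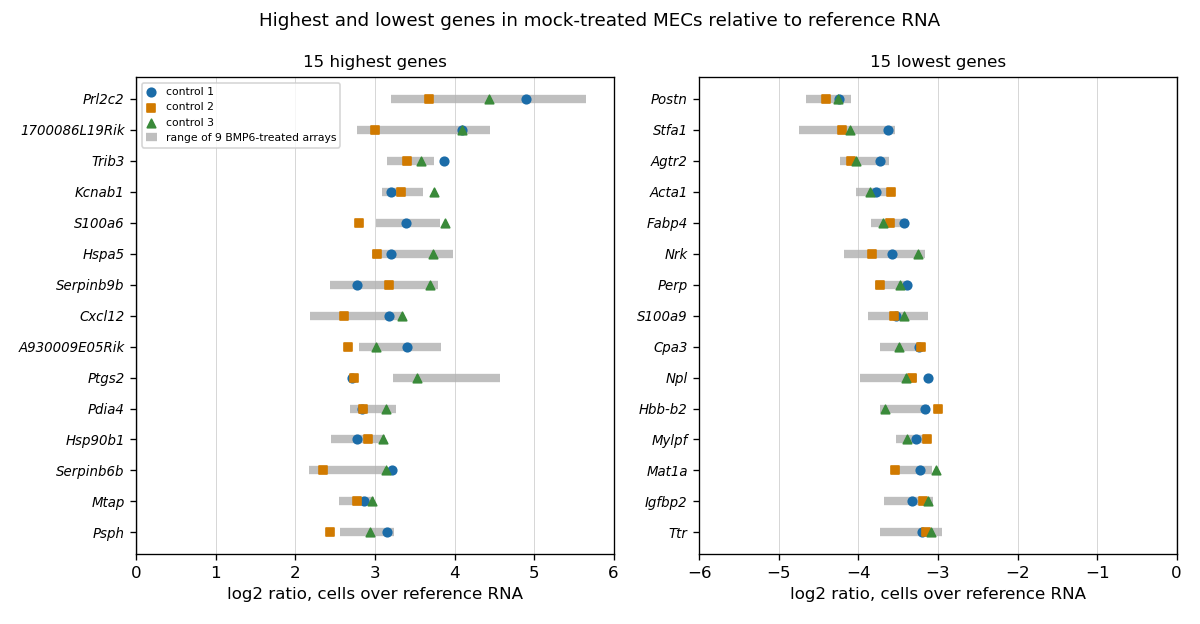
Log2 ratio of cells to reference for the 15 highest genes (left) and the 15 lowest (right), with 1 symbol per control array and a grey bar for the range of the 9 BMP6-treated arrays. Prl2c2 is highest at 4.34 and Postn lowest at -4.30 in the mean, control values spread more at the high end, and the Ptgs2 values of controls 1 and 2 lie below the range of the treated arrays.

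The low end held products of muscle, fat, blood and liver beside genes of other kinds. Postn, the matrix protein periostin, was the lowest named gene at -4.24, -4.41 and -4.26 (-4.30 ± 0.09, limma adjusted p 6.43e-07). Acta1, the actin of skeletal muscle, lay at -3.78, -3.59 and -3.86, and Fabp4, a fatty acid carrier of fat cells and of capillary endothelium, at -3.43, -3.60 and -3.69. The arrays gave nearly the same value for each of these genes. Stfa1 at -3.98 and Cpa3 at -3.31 belong to myeloid and mast cells. Hbb-b2 at -3.28 is an adult globin with a near-identical copy, Mat1a at -3.26 and Ttr at -3.14 belong to liver, and Mylpf at -3.27 is a light chain of fast muscle. Agtr2, a receptor for angiotensin, at -3.95, the kinase Nrk at -3.55, the desmosome gene Perp at -3.53, Npl at -3.29 and Igfbp2, a carrier of insulin-like growth factors, at -3.21 made up the 15.

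Genes that define endothelial cells were not above the reference. Cdh5, VE-cadherin of the endothelial junction, had log2 levels of -1.72, -1.57 and -1.58 (-1.62 ± 0.08). Pecam1, a second junction protein, lay at -1.62, -1.50 and -1.15 (-1.42 ± 0.24), and Kdr, the main VEGF receptor, at -1.03, -1.25 and -1.47 (-1.25 ± 0.22). Every control array placed all 3 genes at least 2-fold below the reference. Podxl, a sialomucin of the luminal surface, was low at -1.08 ± 0.46. The hematopoietic and endothelial marker Cd34 was below at -0.80, the VEGF receptors Flt4 at -0.71 and Flt1 at -0.50, the junction protein Esam at -0.39, and the transcription factors Sox17 at -0.87 and Ets1 at -0.26. The call for Ets1 was lost without array 1 (-0.25, limma adjusted p 0.141) or array 3 (-0.21, 0.0803). Sox18, another factor of endothelial cells, missed the test at -0.14, 0.17 and -0.06. Over the 11 measured members 0 were above, 10 below and 4 low (36.4%, against 4.97% of all genes). Tek, Tie1 and Vwf, also used as defining genes, were not among the named genes measured. Set against the label of the line, none of these 11 genes was thus above the reference, of 34 listed, and a ratio below a mixed reference does not say that Cdh5 or Pecam1 was absent. The list's median over treated arrays ran from -0.96 to -0.58.

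Genes of vessel subtypes were mixed. Efnb2, an arterial ligand, was above at 0.76, 0.41 and 0.58, and Nr2f2, a venous transcription factor, at 0.34, 0.28 and 0.43, so a marker of each kind stood slightly above the reference on all arrays. With its first probe alone Nr2f2 missed the test (0.19, limma adjusted p 0.0776). Prox1, the factor that sets lymphatic identity, was low at -2.67, -3.04 and -2.77 (-2.83 ± 0.19). Aplnr at -1.38, a receptor of growing veins and sprouts, and Notch1 at -1.24 were low too. Dll4, Jag1 and Hey2, of the arterial Notch pathway, missed the test at -0.18, -0.11 and -0.15. Of 13 genes 2 were above and 8 below, with a median of -0.55. Of 22 angiogenic factors and receptors 7 were above and 8 below, with a median of 0.06. The angiogenic counts lie near the shares of all genes (35.5% and 31.3%), while the vessel subtype list had fewer above and more below. Vegfd at 1.58 ± 0.08 and Pdgfc at 1.40 ± 0.07 were high, Vegfa was above at 0.60 ± 0.17, and Angpt2, a ligand made by endothelial cells, was below at -0.43 ± 0.04. The growth factor Igf1 at -1.91 ± 0.07 and the angiogenesis inhibitor Thbs2 at -2.19 ± 0.11 were low.

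**Figure D3:**
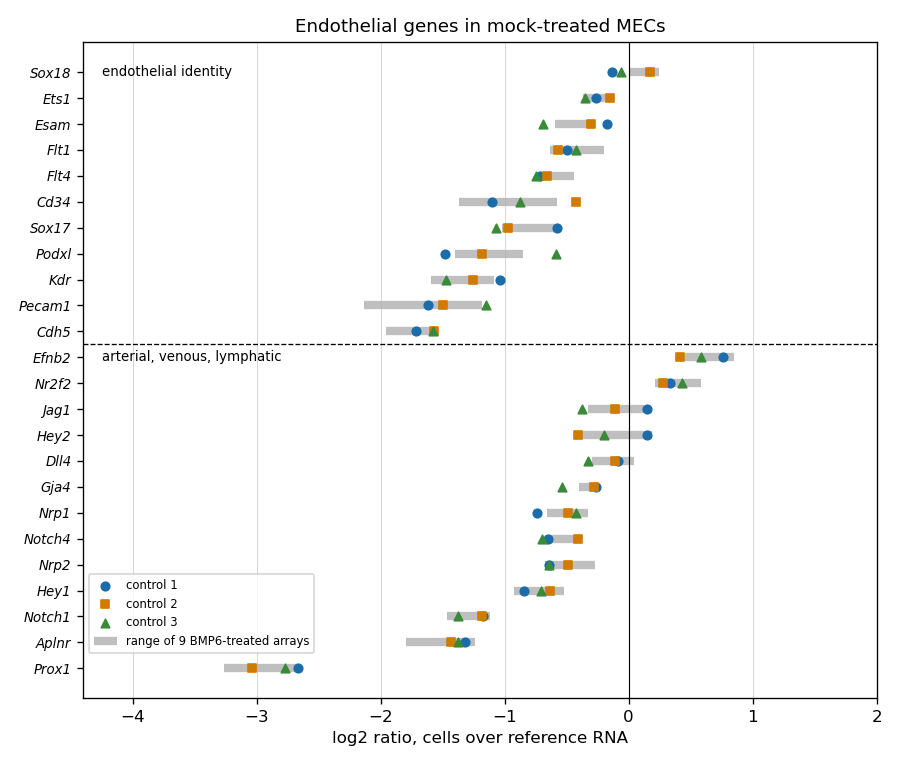
Log2 ratio of cells to reference for 11 endothelial identity genes (top) and 13 genes of arterial, venous or lymphatic cells (bottom), with 1 symbol per control array and a grey bar for the range of the 9 BMP6-treated arrays. Cdh5, Pecam1 and Kdr lie left of -1 on all control arrays, Prox1 lies near -2.83, and Efnb2 and Nr2f2 lie right of 0.

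Markers of other lineages were read the same way, since a line can hold or resemble other cells. Skeletal muscle genes had a median of -2.10 with 7 of 8 low, and liver and visceral endoderm genes one of -2.27 with 5 of 5 low, among them Alb at -3.10. Epithelial genes had a median of -0.84, with Epcam at -2.27 and Cdh1, E-cadherin, at -1.54 among 5 low of 14. White blood cell genes lay at a median of -0.67, with 3 of 10 low, and Ptprc, the marker CD45, was below at -0.76. Pericyte genes lay at -1.02, led downward by Rgs5 at -1.49, while Pdgfrb, their defining receptor, missed the test at 0.06. None of these 5 lists held a high gene. Brain and nerve genes lay at -0.83 and red blood cell genes at -0.50. Stmn2 and Dcx, of young neurons, were low at -2.54 and -2.30.

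The contractile list had the highest median of the lineage lists, followed by the mesenchymal list at 0.10 and the pluripotent stem cell list at 0.08, whose order was reversed on control array 2 (-0.01 and 0.22). Of 16 smooth muscle and contractile genes 4 were high and 2 low, with a median of 0.28. The high ones, Actn1 at 1.53, Flna at 1.18, Cnn2 at 1.16 and Cald1 at 1.05, build the actin skeleton of many cells. Genes more specific to smooth muscle were not high: Acta2 at 0.05, Cnn1 at 0.02 and Myocd at 0.01 missed the test, and Myh11 was below at -0.48. Of 20 mesenchymal genes 7 were above and 6 below, near the shares of all genes (35.5% and 31.3%). The 3 high ones were Cdh2, N-cadherin, at 1.98, 1.31 and 1.66, Vim, vimentin, at 1.40, 1.13 and 1.89, and Fn1, fibronectin, at 1.18, 1.45 and 0.87. Endothelial cells make these 3 proteins too. The 1 low gene was Postn, the lowest named gene of all. The other 5 below were the collagens Col6a2 at -0.93, Col5a2 at -0.86, Col6a1 at -0.77, Col5a1 at -0.42 and Col3a1 at -0.26. Probes of Col5a1 ran from -1.25 to 0.68 and those of Col3a1 from -0.54 to 0.01, so both levels average probes of opposite sign. The factors Snai1 at 0.14, Twist1 at 0.23, Zeb1 at -0.03 and Zeb2 at -0.07 missed the test, and Snai2 was above at 0.37. The mesenchymal median was 0.10 over the 3 arrays and -0.01 without array 1, so its side of the reference rests on that array.

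**Figure D4:**
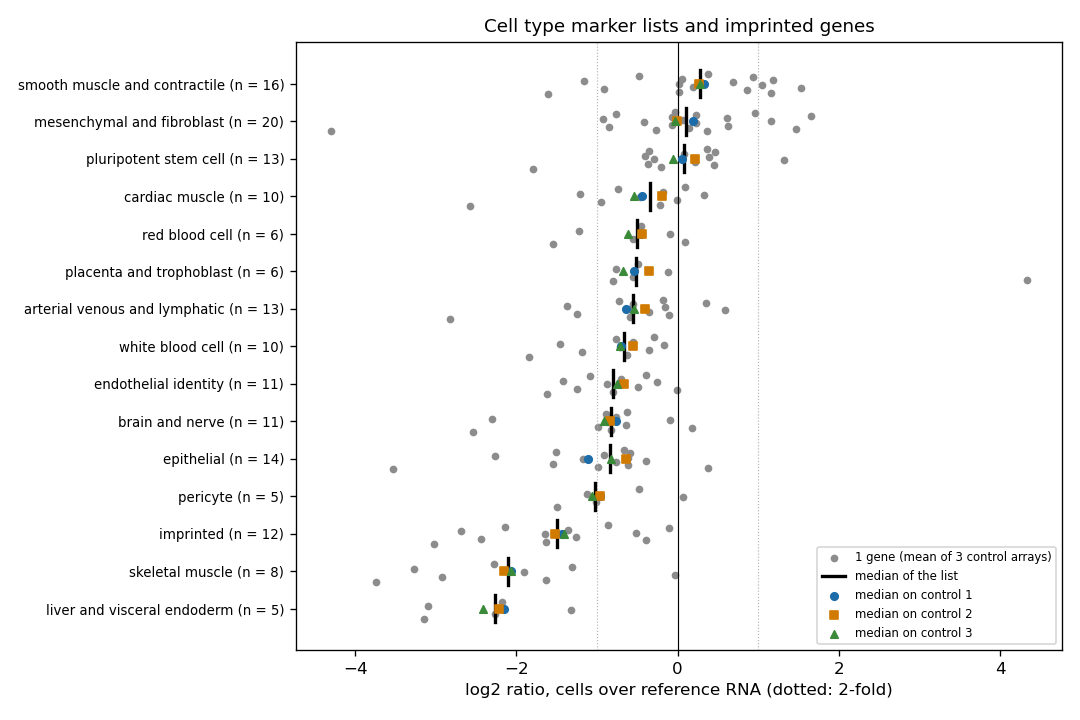
Log2 ratio of cells to reference for the measured genes of 14 lists of cell type markers and 1 of imprinted genes, as grey points that are means of 3 control arrays, with the list median as a bar and the median on each control array as a symbol. Contractile genes lie highest with a median of 0.28 and liver genes lowest at -2.27, and the endothelial list, at -0.80, lies beside the brain and epithelial lists.

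Imprinted genes, which are transcribed from 1 parental copy and are active in the embryo and placenta, were below the reference as a group. Of 12 measured, 11 were below, 8 of them low, and Nnat missed the test at -0.10. Igf2, a fetal growth factor, lay at -2.92, -3.08 and -3.06 (-3.02 ± 0.09), Peg3, a zinc finger factor, at -2.70, -2.76 and -2.60 and Plagl1, another, at -2.55, -2.40 and -2.38. The arrays differed little for these 3 genes. Cdkn1c at -2.15, Dlk1 at -1.64, H19 at -1.64, Meg3 at -1.36 and Ndn at -1.27 were the other low members. The 2 probes of H19 lay far apart, at -3.165 and -0.111, and the 7 of Meg3 ran from -1.977 to -0.466. The median was -1.50, and on the treated arrays it ran from -1.69 to -1.40. Grb10, Kcnq1ot1 and Magel2 were below by less, at -0.39, -0.52 and -0.86. The 7 probes of Kcnq1ot1 ran from -1.107 to 0.211, so its level averages probes of opposite sign.

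The prostanoid pathway, to which the title of the series refers, already held high genes in untreated cells. Ptgs2, cyclooxygenase 2, had log2 levels of 2.71, 2.74 and 3.52 (2.99 ± 0.46, 7.95-fold, limma adjusted p 7.1e-06). Pla2g4a, the phospholipase that frees its substrate, lay at 1.52, 1.19 and 1.60 (1.44 ± 0.22). Ptgis, prostacyclin synthase of vessel walls, lay at 1.33, 1.56 and 1.87 (1.58 ± 0.27). Each of these steps was thus more than 2-fold above the reference on all 3 arrays, and Ptgs2 was highest on array 3. The synthases of prostaglandin E2 diverged: Ptges3 was high at 1.04 ± 0.12, while Ptges at -0.75 ± 0.05 and Ptges2 at -0.72 ± 0.04 were below. The thromboxane synthase Tbxas1 was below at -0.39. Of the receptors, Ptger2 at 0.85 and Ptger1 at 0.71 were above, and the transporter Slco2a1 missed the test at -0.01. Over 10 genes the median was 0.78, with 4 high and 0 low.

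Of the 13 measured receptors and signal carriers of BMP and TGF-beta, 1 was above the reference and 7 were below. Of all genes, 35.5% were above and 31.3% below. Among type II receptors, Bmpr2 had log2 levels of -0.79, -0.73 and -0.60 (-0.71 ± 0.09), Acvr2a lay at -0.76 ± 0.18 and Acvr2b at -0.84 ± 0.05. Among type I receptors, Acvr1 at 0.07 ± 0.08 and Bmpr1a at -0.04 ± 0.08 missed the test, and Acvr1b was below at -0.50. Of the signal carriers, Smad1 was below at -0.25, and Smad5 at -0.07 and the shared Smad4 at 0.15 missed the test. Smad1 missed it too without array 1 (-0.22, limma adjusted p 0.195), without array 2 (-0.19, 0.17), under median centring (-0.21, 0.069) or with its first probe alone (-0.18, 0.168). Smad3, a carrier of TGF-beta signals, was the 1 gene above, at 0.33 ± 0.33. Its call was lost without array 1 (0.15, limma adjusted p 0.405) or array 2 (0.37, 0.0767). Among the TGF-beta receptors Tgfbr3 at -0.40 and Tgfbr1 at -0.39 were below, and Tgfbr2 missed the test at 0.16. None of the 13 was high or low, and the median was -0.25. The ligand Bmp6 itself was below at -0.41 ± 0.18, and the antagonist Fst, follistatin, was low at -1.27 ± 0.17, whereas Inhba, an activin subunit, was high at 1.63, 0.84 and 1.31. Of the direct BMP targets, Id3 was high at 1.22, 0.68 and 1.20, Id1 was above at 0.17, 0.37 and 1.07, and Id2 missed the test at -0.41, -0.69 and 0.26. Array 3 gave the highest Id1 and Id2, and with 1 array per culture, culture and array cannot be told apart. The other 6 targets measured were below: Dlx2 at -0.89, Hey1 at -0.73, Msx2 at -0.45, Msx1 at -0.43, Tbx20 at -0.39 and Dlx5 at -0.33. Over the 9 targets 2 were above and 6 below (35.5% and 31.3% of all genes), with a median of -0.39.

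Chemokines and adhesion proteins for leukocytes included 4 high genes of 13 measured, although the median was -0.03. Cxcl12, a chemokine of stromal and endothelial cells, lay at 3.17, 2.61 and 3.34 (3.04 ± 0.38), and Vcam1, which binds leukocytes, at 1.59, 2.32 and 2.55 (2.15 ± 0.50). Ccl2 at 1.61 ± 0.32, which attracts monocytes, and Csf1 at 1.38 ± 0.19, which keeps macrophages alive, were the other high genes. Selp, P-selectin of activated endothelium, was below at -0.37, and Tnfaip3, an inhibitor of NF-kappa-B, was low at -1.22. Interferon-induced genes lay near the reference with a median of -0.12, where Gbp2 was high at 1.13 and Rsad2 was below at -0.89. Of 10 antigen presentation genes 8 were below, the class II gene H2-Aa being low at -1.07.

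Genes of oxidative stress and metal handling held 9 high members of 21. Txn1, thioredoxin, lay at 2.37, 1.61 and 2.63 (2.20 ± 0.53) and its reductase Txnrd1 at 1.60, 1.38 and 1.96. The ferritin light chain Ftl1 lay at 1.72, 1.90 and 2.86 and Nqo1, a quinone reductase, at 1.04, 1.29 and 1.82. Array 3 was highest for each, and the list's median was 0.74, 0.75 and 1.22 on the 3 arrays. Gpx3, a secreted peroxidase, was low at -1.98 ± 0.02 and catalase, Cat, was below at -0.80. Heat shock genes had a median of 0.61 with 4 of 13 high, led by the mitochondrial chaperones Hspa9 at 1.68, Hspe1 at 1.53 and Hspd1 at 1.43. The cytosolic chaperonin had a median of 0.98, with Cct5 at 1.60 and Cct6a at 1.14, and Cct4 missed the test at -0.05.

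Matrix genes ran in both directions. The protease inhibitors Timp1 at 2.04 ± 0.32 and Timp3 at 1.53 ± 0.31, the collagen chaperone Serpinh1 at 1.61 ± 0.05 and the protease Adam9 at 1.55 ± 0.27 were high, while the gelatinases Mmp2 at -1.92 ± 0.14 and Mmp9 at -1.30 ± 0.07 were low. Collagens had one of the 5 lowest family medians, -0.60 over 23 genes. Col8a1 at 1.79, a short-chain collagen of vessel walls, and Col4a5 at 1.64 and Col4a6 at 1.29, of basement membranes, were nevertheless high. Col14a1 at -2.39 and Col2a1 at -2.05, of fibrous tissue and cartilage, were low. Keratins, with a median of -0.88, claudins with -0.72, Wnt ligands with -0.68 and Sox factors with -0.66 were the other 4 lowest of the families with at least 5 genes. Krt18 at -1.50, Cldn8 at -1.41, Wnt5b at -2.28 and Sox2 at -1.79 were the lowest member of each.

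The levels recurred on the arrays of treated cells, which come from the same line, reference and array design. Of the 551 high genes, 548 had the same sign on all 9 treated arrays, 279 were at least 2-fold above on all 9, and 481 were so in the mean of the 9. Of the 411 low genes the corresponding numbers were 411, 301 and 395. A change over time was called by limma's F test with same-numbered arrays as pairs in 64 of the high genes (11.6%) and 20 of the low (4.87%), against 4.98% of all genes. Without pairing it was called in 1 of each, and in 0.0484% of all genes. The control arrays that picked the high and low genes also enter both F tests, so these shares are no separate result about them. Of the high genes with several probes, 58 of 59 had probes of 1 sign, as did 56 of 59 low genes. Over all genes with several probes the share was 58.0%. High and low genes were picked by the mean of these same probes, which favours agreement in sign, so the counts are no separate support.

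Some families differed between the 3 control arrays by more than others. Ribosomal protein genes, of which 15 of 45 were high, had medians of 0.77, 0.39 and 1.39 on control arrays 1, 2 and 3. Rplp1 lay at 1.42, 0.96 and 2.28, Rps20 at 1.46, 0.87 and 2.22, and Rpl39 at 1.21, -0.51 and 1.50, with 1 of the 5 largest SDs of any gene. Array 2 was thus lowest and array 3 highest for each of these 3. Respiratory chain genes, with a median near 0, had medians of 0.03, -0.33 and 0.23 in the same order of arrays. The treated arrays numbered 2 also had the lowest ribosomal medians of their groups, from 0.35 to 0.56. The treated arrays numbered 3 had the highest of their groups, at 0.79, 1.06 and 1.08, all under the 1.39 of control array 3. At 4 h array 1 lay close to array 3, at 0.78. The labels do not say what arrays of 1 number share, and their part in these levels was not tested. Rplp2 at -1.06 was the only low gene of the family, and its arrays lay at -0.88, -1.13 and -1.16.

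By position, genes of 2 chromosomes stood above the rest. The median log2 level was 0.207 over 410 genes of chromosome 6 and 0.162 over 339 genes of chromosome 15, against -0.077 to 0.08 for the 17 other autosomes. On the control arrays the medians were 0.235, 0.199 and 0.223 for chromosome 6 and 0.208, 0.171 and 0.171 for chromosome 15, which ranked first and second of the autosomes on each array. The shares of high genes were 12.4% and 15.3%, against 6.67% of all genes, and 62.4% and 60.8% of their genes lay above 0, against 52.3%. Some genes named above lie there, such as Cxcl12, Pdia4 and Asns on chromosome 6 and Lgals1, Creld2 and Tars on chromosome 15. Others of the same groups lie elsewhere, such as Hspa5 and Trib3 on chromosome 2, whose median was 0.023. Any part of such genes in the medians was not tested. On the treated arrays the medians ran from 0.156 to 0.215 and from 0.123 to 0.198. No test was made of this difference, since genes of a chromosome share arrays and reference.

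**Figure D5:**
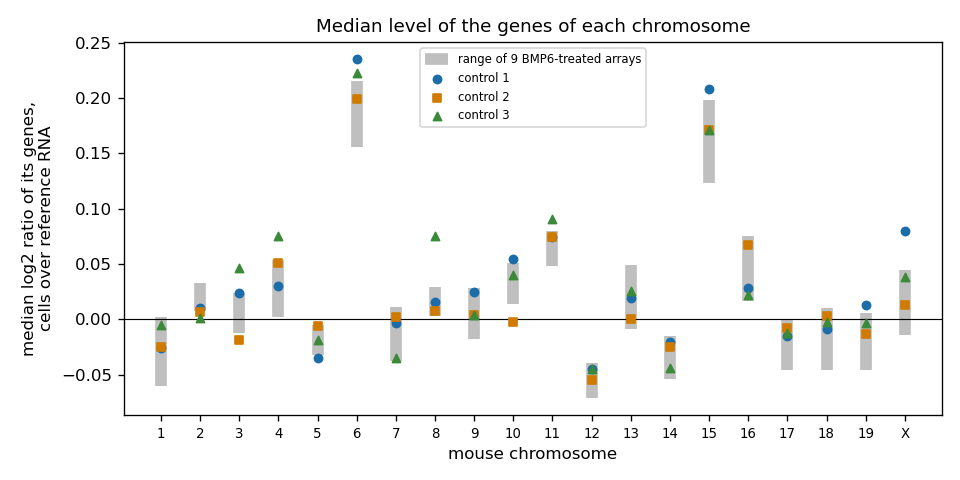
Median log2 ratio of cells to reference over the genes of each chromosome (vertical axis), with 1 symbol per control array and a grey bar for the range of the 9 BMP6-treated arrays. Chromosomes 6 and 15 lie above all other autosomes on every control array, with medians of 0.207 and 0.162 over the mean of the controls.

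The gene Xist, the RNA that silences an X chromosome, was low at -1.69, -1.93 and -1.81 (-1.81 ± 0.12, 5 probes), while the Y-linked genes Kdm5d at 0.78 ± 0.28 and Eif2s3y at 0.36 ± 0.09 were above the reference. The median of the 286 genes of the X chromosome was 0.046, close to that of all genes.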

How the data were processed

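The values came from the deposited table of 12 two-colour Agilent arrays, of which the 3 control arrays carry the results. Per the labels, the authors normalized raw ratios with a modified local quantiles method, and the values were taken as log2 ratios of Cy5 (cells) over Cy3 (reference). The labels name no base and no sign. The gene names rest on an order of the 22575 grid positions that was recovered from the data: in it the probes of a gene correlated at 0.449, against 0.024 in the deposited order. All 11083 listed probes fell on a row with a value. Of these, 10576 had 1 symbol (10548 updated, 28 with old names) and 507 had several and named no gene. Probes of a gene were averaged.

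Levels were tested against 0 with limma 3.58.1 in R 4.3.3 (intercept only, eBayes, two-sided, Benjamini-Hochberg over 8267 genes), called at an adjusted p under 0.05 and, as a second limit, at least 2-fold. The test was also run on simulated data, where far fewer genes were shifted than passed here. That run is not used as support, and a missed test does not mean a level of 0. Lists and families (with at least 5 measured genes) are described by counts and medians, with no test. Named genes were the 15 highest and 15 lowest called genes whose arrays and probes had 1 sign, the 5 with the largest SD, every member of the endothelial, prostanoid and BMP lists, the 3 highest and 3 lowest of other lists and families, and a few others of the lists, chosen after their values were seen. Family patterns were narrowed where unrelated genes shared a prefix. The members and lists were chosen with earlier results of these data known. Promoters came from RefSeq tables of GRCm38.p6. Each promoter element was chosen for its own list, so the shares of matches describe sequences and test nothing.

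The replicate numbers in the titles were taken as pairs, though the labels do not say so. Same-numbered arrays of different groups correlated at 0.443 to 0.695 in their deviations from group means, and others at -0.564 to 0.069. Deviations cancel within a group, so the lower range follows in part from the higher one. Alternatives tried were median centring, quantile normalization, the first probe of a gene, a fit of 12 arrays with and without a replicate block, and leaving out each control array.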

Additional observations from a re-analysis of the deposited data

How the results depend on the processing

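The counts of genes and of rows above and below the reference stayed within 1.5 times under every alternative run, which for rows did not include the first probe. Genes at least 2-fold above the reference, 551 in the results, numbered 529 to 631 under other scalings or with the first probe, and 494 to 650 when a control array was left out, with 455 to 546 of the 551 remaining. Genes at least 2-fold below the reference, 411, numbered 388 to 426 and 414 to 421. With the replicate block in a fit of 12 arrays the counts were 551 and 411. A gene's control mean is the same in that fit, so only the adjusted p could have changed these counts. The block moved no count of genes above or below the reference by over 1.5 times. The median of endothelial identity was -0.82 to -0.70 with an array left out. Of 463 named genes called, 419 kept their call in every alternative, 34 lost it without at least 1 array, and 1 reversed: the level of Cdc42 was -0.48 from 2 probes of opposite sign and 0.41 from the first probe. The causes were not tested. With 3 arrays, 1 reference, no dye swap and no intensities, neither detection nor dye effects could be measured, and sampling between cultures rests on 3 values.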

Other observations

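Of the 9704 rows without a single gene name 316 (3.26%) were at least 2-fold above the reference and 314 (3.24%) below in limma's test over all rows, against 5.40% and 4.08% of all rows. Their means ran from -4.21 to 5.18, and the highest unnamed row stood above Prl2c2.

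Pluripotency genes lay around the reference with a median of 0.08 over 13 genes. Tdgf1, a co-receptor of the embryo, was at least 2-fold above the reference in the mean, with log2 levels of 2.13, 1.21 and 0.63 on the 3 control arrays, which differed widely. Nanog missed the test at 0.07, and Sox2, at -2.43, -1.07 and -1.89, was low on each array. Cholesterol synthesis genes had a median of 0.43, with Sqle at 1.49, Cyp51 at 1.38 and Ebp at 1.21 high. Array 1 was the lowest of the 3 for these 3 genes, the reverse of its place for amino acid genes. Among immediate early genes, Zfp36, which destabilises cytokine messages, was high at 2.54, 2.06 and 1.55, while Fos was low at -1.45, -1.29 and -0.93.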
